A study of Mus musculus with 12 samples.

Results

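The genes described here are the late-numbered mouse zinc finger genes, those with a symbol of Zfp9 followed by 2 digits, together with Zfp640. The array annotation holds 53 such symbols, and 35 of them have a probe set that carries no other symbol. These 35 genes, of 19938 genes with a probe set of their own, are the members followed below. Where a gene had several probe sets, the one with the highest mean over the 12 arrays stands for it. The other 18 symbols appear only on probe sets that carry several symbols. There are 29 such probe sets with any of the 53 symbols on them, each with between 2 and 18 symbols. They may carry symbols of the 35 genes as well. The signals of these probe sets cannot be given to one gene.

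Genes of this kind usually encode a KRAB domain followed by a row of zinc fingers. The fingers bind DNA, and the KRAB domain recruits the co-repressor Trim28, which in turn brings the histone methyltransferase Setdb1 and heterochromatin proteins. In embryonic stem cells this machinery silences endogenous retroviruses and protects imprinted DNA methylation. Many of the mouse genes lie in clusters that grew by local duplication, so neighbouring genes can be close to identical. Whether each of the 35 genes encodes a KRAB domain was not checked here, and the name of the group rests on the family's naming. Probe sets of such young copies may also bind RNA of a relative, so each signal below is uncertain to that extent.

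The series follows the reprogramming of mouse embryonic fibroblasts (MEF) to induced pluripotent stem cells (iPSC) in cells that differ in their copies of Mbd3, which belongs to the chromatin remodelling complex NuRD, on 12 arrays. The 4 pluripotent arrays are an Mbd3flox/- iPSC line, an Mbd3+/+ iPSC line, an Mbd3-/- embryonic stem cell (ESC) line and an Mbd3+/+ ESC line that the labels call V6.5. The 5 arrays after doxycycline (DOX), which switches on Oct4, Sox2, Klf4 and Myc (OSKM), are Mbd3flox/- cells at days 4 and 8 and Mbd3+/+ cells at days 4, 8 and 11. The 3 MEF arrays are Mbd3flox/-, Mbd3-/- and Mbd3+/+ cells without DOX. The genotypes are called flox/-, -/- and WT below. All flox/- cells carry the inducible OSKM transgene, as do the WT MEF, DOX-treated cells and iPSC. The labels of the -/- cells and of the WT ESC name no transgene. Arrays of WT day 8 and of WT ESC come from an earlier series, and one label of the WT day 8 array says 4 days while its title and stage say 8. All cells were grown on irradiated DR4 feeder fibroblasts in medium with LIF and inhibitors, and RNA of these feeders may have entered any sample. Each genotype and stage has 1 array. Arrays of one cell state therefore stand as replicates. In comparisons of states the p-values below measure the spread between these arrays, genotype included. Where genotype is itself a term of the fit, they measure the spread that is left beside it. Fewer cells of a type and less RNA per cell cannot be told apart in such bulk samples.

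Mbd3 itself had a log2 signal of 8.15 on the -/- MEF array and 6.73 on the -/- ESC array. It was 9.20 in WT MEF, 9.31 in WT ESC and at most 9.67 on any WT array. On the flox/- arrays it was between 8.73 and 9.11. The flox/- and WT ranges overlapped, because the WT day 8 array read lower than the flox/- day 4 array. Where the Mbd3 probe set lies relative to the deleted stretch was not checked. The mean log2 signal of 12 pluripotency markers was 11.43 to 11.54 on the pluripotent arrays and 5.47 to 5.61 on the MEF arrays. After DOX it was 7.69 on the flox/- and 6.74 on the WT day 4 array, 11.56 on the flox/- and 6.98 on the WT day 8 array, and 10.89 on the WT day 11 array. For 11 fibroblast markers the mean was 6.41 to 8.81 on the pluripotent arrays and 11.18 to 11.58 on the MEF arrays. For 11 macrophage markers it was 6.08 to 7.25 on the pluripotent arrays, while the MEF arrays read 9.49 in flox/-, 7.26 in -/- and 10.33 in WT.

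The RefSeq gene table of GRCm38.p6 placed 34 of the 35 genes on 11 chromosomes. With neighbours at most 2 Mb apart counted as a cluster, 18 genes fell into 4 clusters. The chromosome 4 cluster held, in order along the chromosome, Zfp980, Zfp991, Zfp982, Zfp985, Zfp979 and Zfp933. The chromosome 17 cluster held Zfp948, Zfp983, Zfp942, Zfp943, Zfp947, Zfp944, Zfp946 and Zfp945. A pair on chromosome 2 (Zfp971 and Zfp931) and a pair on chromosome 7 (Zfp974 and Zfp940) made up the rest.

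RefSeq promoter windows, which run from 250 bases before to 50 bases after a start site, were listed for 32 of the 35 genes. Zfp640, Zfp930 and Zfp991 had none. Zfp991 lies in the chromosome 4 cluster, so the runs described below could not be looked for in it. The closest pair of windows among the 496 pairs was Zfp979 and Zfp980 at 89.8% identity. Zfp979 and Zfp985 shared 82.3%, Zfp980 and Zfp985 81.9%, and 16 of the pairs reached 60%. The longest runs of bases common to the windows of Zfp980, Zfp979 and Zfp985 were 21 bases long, and there were 3 of them: AAGAACTGGGAAGCTAATTAA, AGGAGTGGCTCTGAGGAACCA and GGCTGCCTCGTGGTCAGGAAG. One of the 3 windows listed for Zfp982 held all of them too. The windows of these genes of the chromosome 4 cluster are printed to show the runs. That of Zfp982 was picked because it holds them. The first listed window of Zfp982 was 45.2%, 47.2% and 45.3% identical to the windows of Zfp980, Zfp979 and Zfp985. Zfp961 had a larger difference between pluripotent cells and MEF than Zfp985, and its window is not printed. The window of Zfp933, at the end of the same cluster, is printed for contrast and lacks all of these runs. Capitals mark the run farthest from the start site. The windows lie at chr4:145670447-145670746 on the plus strand for Zfp980, chr4:147642459-147642758 on the minus strand for Zfp979, chr4:147553027-147553326 on the plus strand for Zfp985, chr4:147492167-147492466 on the plus strand for Zfp982 and chr4:147848369-147848668 on the minus strand for Zfp933, all in GRCm38.p6.
Zfp980: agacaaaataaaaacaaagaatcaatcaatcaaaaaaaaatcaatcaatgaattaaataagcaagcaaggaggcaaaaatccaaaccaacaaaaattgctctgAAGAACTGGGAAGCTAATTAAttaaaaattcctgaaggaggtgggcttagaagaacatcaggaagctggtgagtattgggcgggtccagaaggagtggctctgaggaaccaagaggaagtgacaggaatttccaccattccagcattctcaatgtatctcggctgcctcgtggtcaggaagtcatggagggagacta
Zfp979: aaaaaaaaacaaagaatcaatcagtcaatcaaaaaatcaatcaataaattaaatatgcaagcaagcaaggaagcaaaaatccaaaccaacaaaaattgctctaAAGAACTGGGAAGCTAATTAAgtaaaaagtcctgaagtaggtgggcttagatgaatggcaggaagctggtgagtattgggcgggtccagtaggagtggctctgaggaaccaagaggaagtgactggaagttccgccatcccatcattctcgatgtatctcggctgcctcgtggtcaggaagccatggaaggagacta
Zfp985: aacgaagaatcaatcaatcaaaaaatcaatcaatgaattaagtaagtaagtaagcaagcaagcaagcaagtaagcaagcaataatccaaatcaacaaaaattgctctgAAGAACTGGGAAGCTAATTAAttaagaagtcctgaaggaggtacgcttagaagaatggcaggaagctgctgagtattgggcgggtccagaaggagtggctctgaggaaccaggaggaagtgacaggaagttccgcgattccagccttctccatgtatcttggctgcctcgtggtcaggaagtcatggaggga
Zfp982: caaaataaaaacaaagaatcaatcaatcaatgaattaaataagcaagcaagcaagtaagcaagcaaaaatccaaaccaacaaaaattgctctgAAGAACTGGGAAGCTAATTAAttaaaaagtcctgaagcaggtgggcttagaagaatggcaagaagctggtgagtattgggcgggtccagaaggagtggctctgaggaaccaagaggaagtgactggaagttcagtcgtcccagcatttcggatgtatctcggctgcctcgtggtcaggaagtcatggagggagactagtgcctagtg
Zfp933: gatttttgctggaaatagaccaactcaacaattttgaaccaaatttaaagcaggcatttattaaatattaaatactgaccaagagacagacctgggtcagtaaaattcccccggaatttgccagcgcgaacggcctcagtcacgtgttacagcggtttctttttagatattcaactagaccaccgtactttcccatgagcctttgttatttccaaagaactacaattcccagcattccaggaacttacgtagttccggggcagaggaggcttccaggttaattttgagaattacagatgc

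The run in capitals ended 126 bases before the start site in the windows of Zfp980 and Zfp979, 121 bases before it in that of Zfp985 and 136 bases before it in that of Zfp982. On either strand it occurred in 9 of 32851 RefSeq promoter windows (0.0274%). These belonged to 9 genes, all on chromosome 4. Besides the genes above they were Rex2, Zfp534, Zfp600, Zfp987 and Zfp988. The run AGGAGTGGCTCTGAGGAACCA was in windows of the same 9 genes, and GGCTGCCTCGTGGTCAGGAAG was in 7 windows (0.0213%), again all on chromosome 4. Of the 9 genes, 5 had a probe set of their own, namely Zfp980, Zfp979, Zfp982, Zfp985 and Zfp600. Zfp600 is not one of the 35 genes and is named because its window holds all of these runs. Its log2 signal averaged 8.59 ± 0.77 on the pluripotent arrays (SD, n = 4) and 3.69 ± 0.26 on the MEF arrays (SD, n = 3), a log2 difference of 4.91 (limma, adjusted p = 0.000149). That MEF mean was below the lower quartile of the arrays, 4.68, so the size of this difference rests on values near the floor. A shared run between duplicated genes is a description of their sequence and names no factor that binds there.

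Pluripotent cells were compared with MEF to see how the 35 genes differ between the ends of reprogramming. In pluripotent cells 18 were called higher and 2 lower, and 15 did not pass the threshold (limma, Benjamini-Hochberg adjusted p under 0.05 over all genes). Over all 19938 genes, 20.6% were called higher and 20.9% lower. The median log2 difference was 0.69 over the 35 genes and -0.00 over all genes. Among the 282 other genes named Zfp and a number, 83 were called higher and 42 lower, with a median of 0.14. Zfp640 and Zfp980 were already known as large rises from earlier work on these data, so their place at the top is no independent evidence.

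**Figure D1:**
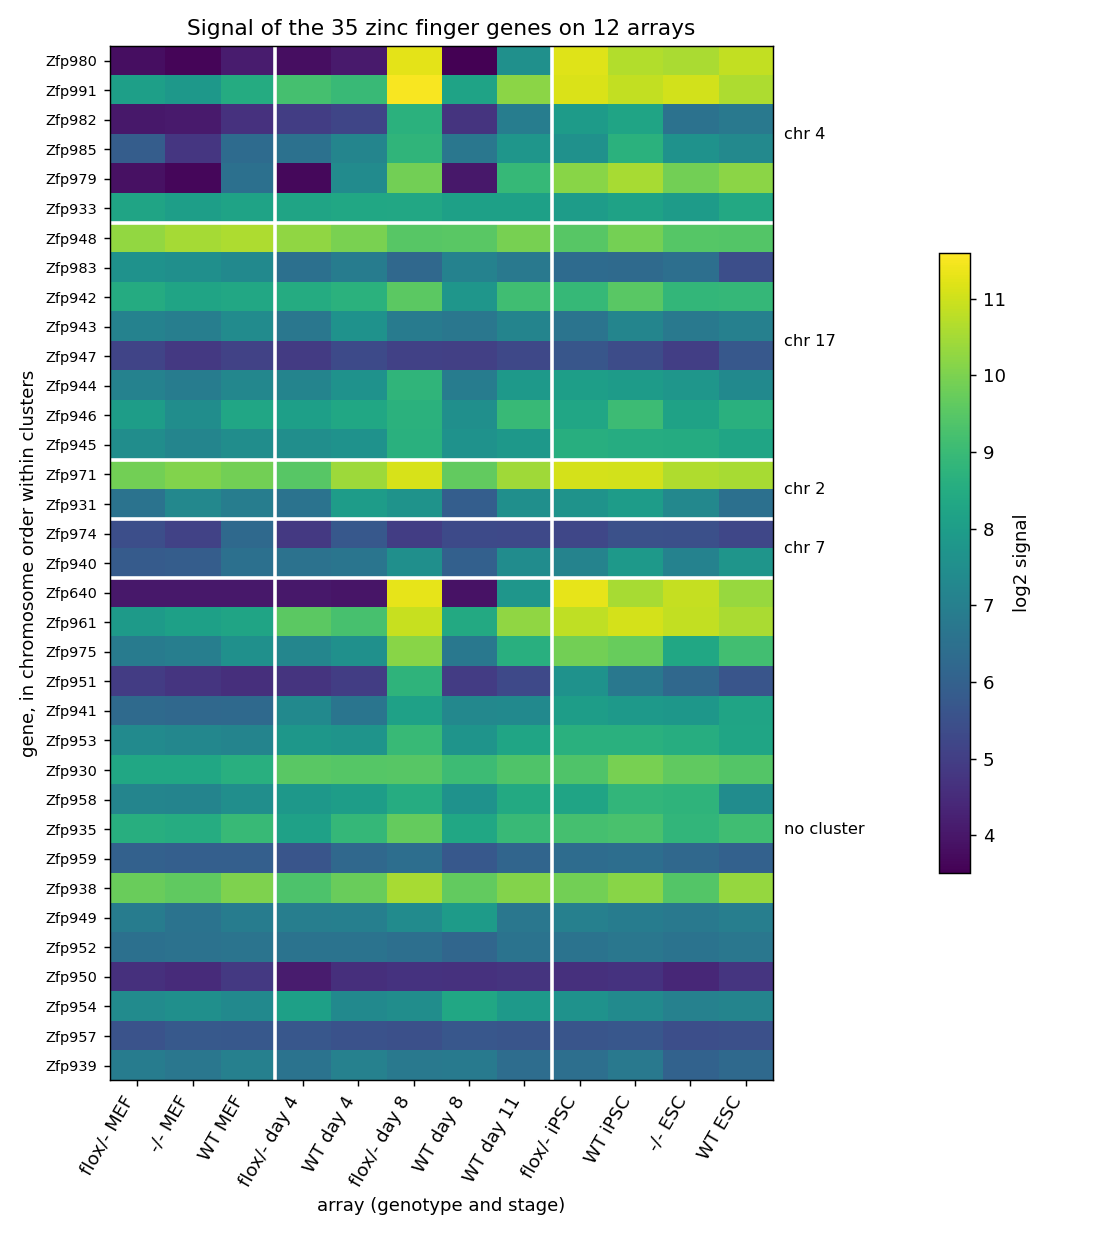
Log2 signal (colour) of each of the 35 genes (rows, in chromosome order within clusters, then the genes in no cluster by their difference) on each of the 12 arrays (columns, by stage and genotype). White lines separate MEF, DOX-treated and pluripotent arrays and the clusters; Zfp980 and Zfp640 are dark on every MEF array and bright on every pluripotent array, and Zfp933 is even across the row.

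Zfp980 and Zfp640 had the largest measured differences. Zfp980 read 11.20 in flox/- iPSC, 10.68 in WT iPSC, 10.56 in -/- ESC and 10.86 in WT ESC, against 3.79, 3.60 and 4.11 in flox/-, -/- and WT MEF. All 4 pluripotent arrays lay far above all 3 MEF arrays, and the MEF values were below the lower quartile of the arrays, 4.68. The log2 difference was 6.99 ± 0.19 (SE), a measured fold of 127 (limma, adjusted p = 2.39e-06). With signals under the lower quartile set to it, a setting chosen after seeing the data, the fold was 70.6 for Zfp980, 68.2 for Zfp640 and 30 for Zfp979. Zfp640 read 11.30 in flox/- iPSC, 10.55 in WT iPSC, 10.90 in -/- ESC and 10.35 in WT ESC, against 4.01, 4.02 and 4.03 in flox/-, -/- and WT MEF. It too was near the floor of the arrays in every MEF sample, so its measured fold of 108 (log2 difference 6.76 ± 0.22, limma, adjusted p = 5.30e-06) rests on values close to that floor. The other 2 probe sets of Zfp640 gave log2 differences of 6.93 and 6.07.

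Zfp979, which RefSeq also lists as Ssm1b, a strain-specific modifier of transgene methylation, was the next largest. It read 10.16 in flox/- iPSC, 10.53 in WT iPSC, 9.87 in -/- ESC and 10.19 in WT ESC, against 3.86, 3.63 and 6.48 in flox/-, -/- and WT MEF. The pluripotent arrays were close together, while the WT MEF array stood well above the other MEF arrays. The log2 difference was 5.53 ± 0.67 (limma, adjusted p = 0.000658). Zfp982, reported to regulate Nanog in mouse ESC, read 7.95, 8.24, 6.54 and 6.78 in flox/- iPSC, WT iPSC, -/- ESC and WT ESC, against 4.01, 4.07 and 4.65 in flox/-, -/- and WT MEF. Both iPSC arrays were above both ESC arrays for this gene, and all were above the MEF arrays. The log2 difference was 3.13 ± 0.45 (limma, adjusted p = 0.00145). The MEF values of Zfp982 were all below the lower quartile of the arrays, 4.68. With signals under that quartile set to it, its log2 difference was 2.70.

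Zfp991 read 11.13, 10.86, 11.04 and 10.59 in flox/- iPSC, WT iPSC, -/- ESC and WT ESC, against 8.07, 7.83 and 8.48 in flox/-, -/- and WT MEF. It was thus above the array median of 6.31 in MEF already. Its log2 difference was 2.78 ± 0.19 (limma, adjusted p = 7.58e-05). Zfp961, a chromosome 8 gene, had nearly the same size of difference, 2.76 ± 0.13 (limma, adjusted p = 2.60e-05), with 10.58 to 11.08 on the pluripotent arrays and 7.92 to 8.22 on the MEF arrays. Neither gene's groups overlapped. Zfp985 lay between 7.30 and 8.67 on the pluripotent arrays and between 4.77 and 6.32 on the MEF arrays, a fold of 4.39 (limma, adjusted p = 0.0078). Its other 2 probe sets gave log2 differences of 3.83 and 2.46, against 2.13 for the one used.

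Of the remaining genes called higher, Zfp975 differed 4.37-fold (limma, adjusted p = 0.00427), Zfp951 3.47-fold (0.014) and Zfp941 3.25-fold (8.33e-05). Zfp941 had the tighter groups of these, with 7.78 to 8.24 on the pluripotent arrays and 6.25 to 6.29 on the MEF arrays. Zfp940, Zfp953, Zfp930 and Zfp945 differed 2.61-, 2.39-, 2.27- and 2.11-fold, with adjusted p-values of 0.00459, 0.000253, 0.00104 and 0.000441 (limma). The last genes called higher had smaller differences and are named to complete the list: Zfp958 (log2 1.03), Zfp971 (0.88), Zfp942 (0.70) and Zfp944 (0.69). The Zfp958 values overlapped, with 7.44 in WT ESC below 7.51 in WT MEF, and its call (limma, adjusted p = 0.048) was lost with a genotype term (0.0983) and on leaving out any 1 of 6 of the 7 arrays, all but WT ESC. The call of Zfp942 was lost without the -/- MEF array, and that of Zfp944 without the WT iPSC, flox/- MEF or -/- MEF array.

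Zfp983 and Zfp948, neighbours at one end of the chromosome 17 cluster, were lower in pluripotent cells. Zfp983 read 6.34 in flox/- iPSC, 6.31 in WT iPSC, 6.45 in -/- ESC and 5.46 in WT ESC, against 7.63, 7.52 and 7.35 in flox/-, -/- and WT MEF. Every pluripotent array was below every MEF array, with a log2 difference of -1.36 ± 0.24 (limma, adjusted p = 0.00392). Zfp948 read 9.49, 9.92, 9.46 and 9.44 in flox/- iPSC, WT iPSC, -/- ESC and WT ESC, against 10.30, 10.52 and 10.61 in flox/-, -/- and WT MEF. Its log2 difference was -0.90 ± 0.14 (limma, adjusted p = 0.00237).

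**Figure D2:**
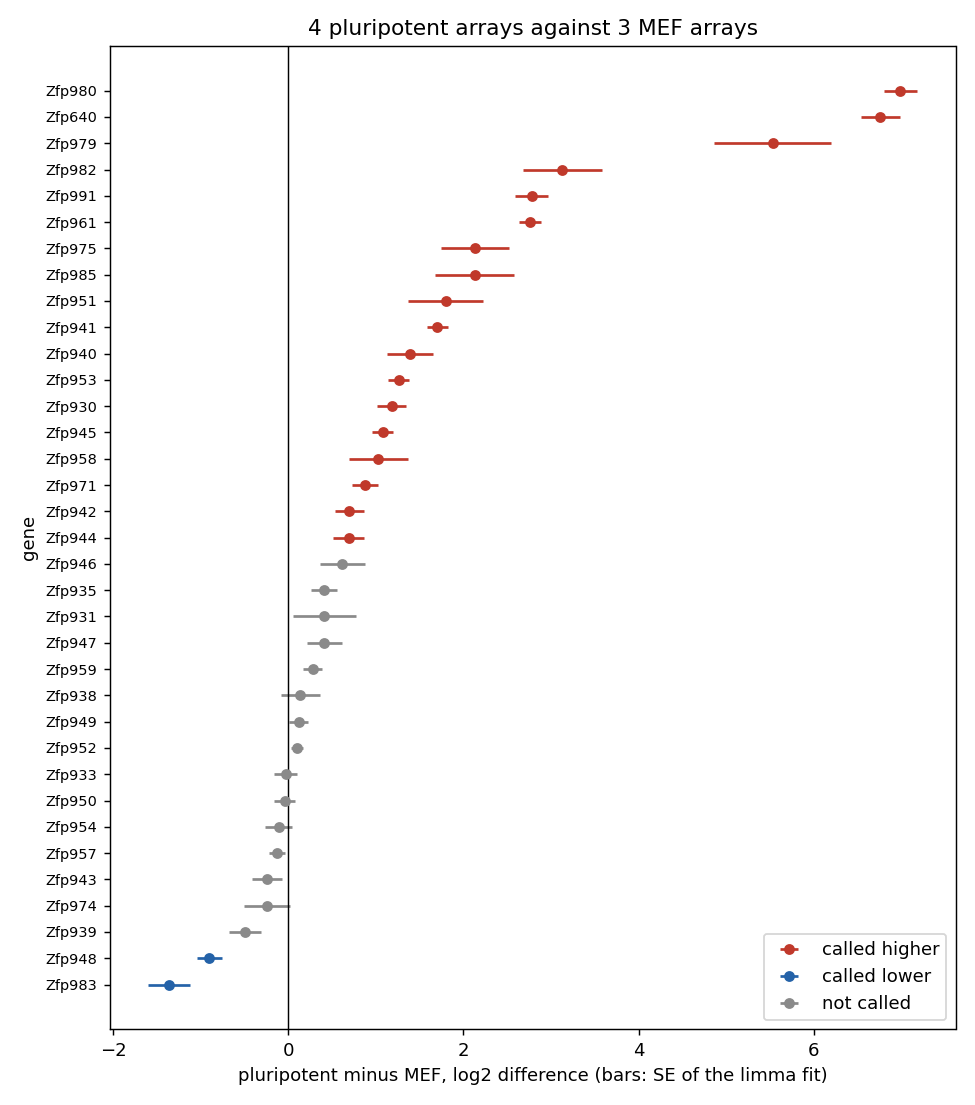
Log2 difference of the 4 pluripotent arrays minus the 3 MEF arrays for each of the 35 genes (points), with the SE of the limma fit as bars; red marks the 18 genes called higher, blue the 2 called lower and grey the 15 not called. Zfp980, Zfp640 and Zfp979 stand apart at 6.99, 6.76 and 5.53, and Zfp983 is lowest at -1.36.

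The chromosome 4 and chromosome 17 clusters are described side by side, and no test of a difference between them was run. On chromosome 4, 5 of 6 genes were called higher and 0 lower, and the log2 differences lay between -0.03 (Zfp933) and 6.99 (Zfp980), with a median of 2.95. The exception, Zfp933, read 7.98, 8.17, 7.93 and 8.38 in flox/- iPSC, WT iPSC, -/- ESC and WT ESC, against 8.22, 8.03 and 8.19 in flox/-, -/- and WT MEF, and its log2 difference was -0.03 ± 0.13 (limma, adjusted p = 0.888). On chromosome 17, 3 of 8 genes were called higher and 2 lower, and the differences lay between -1.36 (Zfp983) and 1.08 (Zfp945), with a median of 0.52. Beside these counts, 20.6% of all genes were called higher and 20.9% lower. With so few genes, no trait of a cluster is read from the calls. Pearson's r between pairs of genes over the 12 arrays had a median of 0.88 over the 15 pairs of the chromosome 4 cluster, 0.20 over the 28 pairs of the chromosome 17 cluster and 0.40 over all 595 pairs. The pairs share arrays and, within a cluster, similar sequence, so these values only describe the data.

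The windows of Zfp942 and Zfp943 lie on opposite strands and share 194 bases. The pair was picked out after its values were seen. Zfp942 was called higher in pluripotent cells and Zfp943 had a log2 difference of -0.24 (limma, adjusted p = 0.325). The difference between the pair was not tested.

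Motif letters were counted in the first listed window of each of the 32 genes on both strands, beside all 32851 windows. The CCAAT box (CCAAT) was in 21 windows, or 65.6%, against 37.4% of all windows. The KLF motif (CCNCNCCC) was in 28.1%, against 49.5% of all windows. The TATA box (TATAAA) and the OCT4 octamer (ATGCAAAT) were in 0 windows, against 13.6% and 1.74% of all windows. The SOX motif (ACAAAG) was in 18.8%, against 18.7%. Because several windows are copies of each other, the 32 are not independent, and a match or its absence says nothing of what binds there.

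Signal was set beside the array median of all probe sets, 6.31. Over the 19938 genes alone the median of an array was 6.59 to 6.87. Of the 35 genes, 18 were above 6.31 on all 12 arrays, 13 on some and 4 on none. On at least 1 array 31 were above it, against 13044 of the 19938 genes. Zfp950, Zfp947, Zfp974 and Zfp957 were the genes above it on none, and they also had the lowest means over 12 arrays, 4.60 to 5.61. The highest means belonged to Zfp971 (10.35), Zfp948 (9.91), Zfp938 (9.88) and Zfp991 (9.68). Signals of different probe sets are not on one scale, so no order between genes is read from them.

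The DOX-treated arrays were compared with MEF and with pluripotent cells to place the reprogramming cells between the ends. These comparisons share the MEF and pluripotent arrays with the one above. Against MEF, 1 of the 35 genes was called, against 8.4% of all genes, and 8 (22.9%) had an unadjusted p under 0.05, against 26.7% of all genes. That gene was Zfp930, at 9.04 to 9.53 after DOX and 8.31 to 8.61 in MEF, a log2 difference of 0.96 ± 0.14 (limma, adjusted p = 0.0128). Its call was lost without the flox/- MEF array (limma, adjusted p = 0.0731) and with a genotype term (0.0602). The number called of the 35 ranged from 0 to 4 on leaving out 1 array. It was 0 without flox/- MEF, 2 without WT day 4 or flox/- day 8, and 4 without WT day 8. The share of all genes called in these fits is not given, so nothing particular to the 35 is read from the counts. The largest differences did not pass: 2.22 ± 1.80 for Zfp980, 2.17 ± 1.77 for Zfp640 and 2.12 ± 1.63 for Zfp979 (limma, adjusted p = 0.496, 0.499 and 0.47). Their standard errors were close to the differences themselves.

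Against pluripotent cells, 0 of the 35 genes were called by limma on the DOX-treated arrays, 7 (20%) had an unadjusted p under 0.05 against 12.9% of all genes, and 0.00502% of all genes (1 gene) were called. The number called was 5 without the flox/- day 8 array and 0 without any other single array. Calls over all genes in those fits are not given, so nothing particular to the 35 is read from these counts. The largest log2 differences, which did not pass, were -4.77 ± 1.55 for Zfp980, -4.59 ± 1.53 for Zfp640 and -3.41 ± 1.31 for Zfp979 (limma, adjusted p = 0.325, 0.33 and 0.354).

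The DOX-treated arrays differ in day and genotype, and the spread among them was wide. Zfp980 read 3.80 on the flox/- day 4 array and 4.10 on the WT day 4 array, 11.27 on flox/- day 8 and 3.51 on WT day 8, and 7.57 on WT day 11. Zfp640 read 4.03 on flox/- day 4 and 3.97 on WT day 4, 11.31 on flox/- day 8 and 3.89 on WT day 8, and 7.75 on WT day 11. For both genes the day 4 arrays and the WT day 8 array were at MEF level, the flox/- day 8 array was at the level of the pluripotent arrays, and the WT day 11 array lay between. The pluripotency marker mean given above was 11.56 on the flox/- day 8 array and 10.89 on WT day 11, near its pluripotent level. On the flox/- day 4, WT day 4 and WT day 8 arrays it was 7.69, 6.74 and 6.98, above its highest MEF value of 5.61. Its part in the values of these genes was not tested. Zfp979 read 3.67 on flox/- day 4 and 7.40 on WT day 4, 9.86 on flox/- day 8 and 4.01 on WT day 8, and 8.94 on WT day 11. Here the WT day 4 and WT day 8 arrays were far apart.

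**Figure D3:**
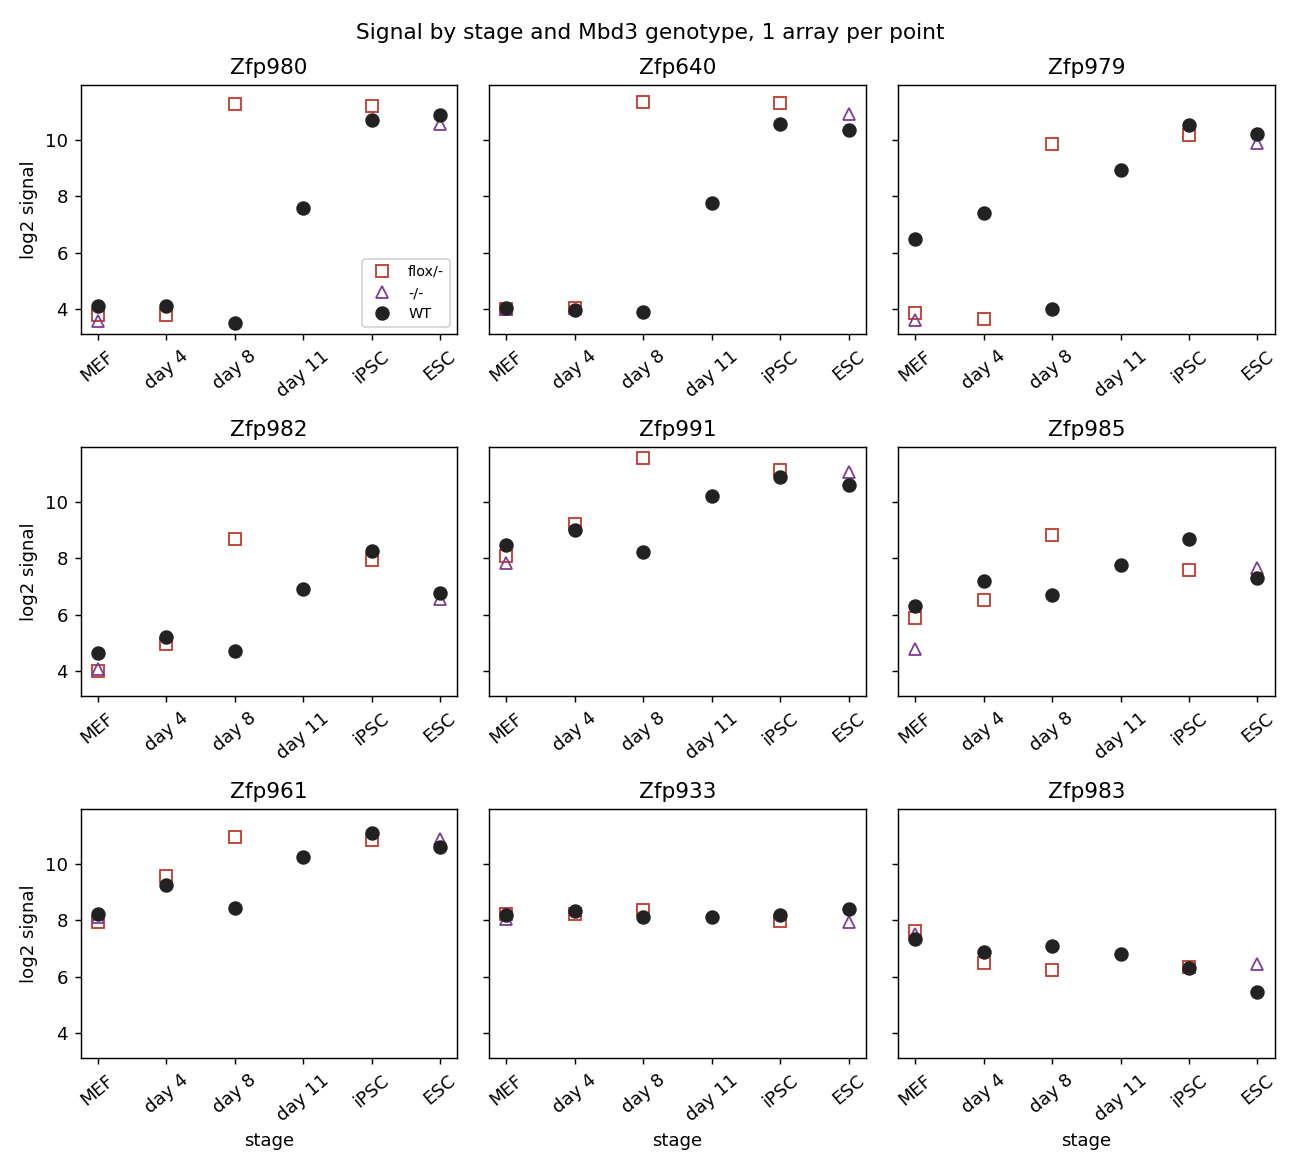
Log2 signal (vertical axis) of 9 genes by stage (horizontal axis), 1 array per point; red open squares are flox/-, purple open triangles -/- and black filled circles WT. For Zfp980 and Zfp640 the flox/- day 8 point is among the iPSC and ESC points and the WT day 8 point is among the MEF points, and Zfp933 is level throughout.

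At day 4, 2 of the 35 genes (5.71%) were called against MEF, both higher. Among all genes 2.32% were called, 283 higher and 180 lower. An unadjusted p under 0.05 was found for 8 of the 35 (22.9%), against 26.6% of all genes. Zfp961 read 9.55 in flox/- and 9.23 in WT cells at day 4, against 7.92, 8.10 and 8.22 in flox/-, -/- and WT MEF, a log2 difference of 1.31 ± 0.15 (limma, adjusted p = 0.0457). Zfp930 read 9.53 and 9.46 in flox/- and WT cells at day 4, against 8.31, 8.32 and 8.61 in flox/-, -/- and WT MEF, a log2 difference of 1.08 ± 0.13 (limma, adjusted p = 0.0459). The day 4 arrays lay above all MEF arrays for both genes. Their calls did not hold without any 1 of the WT MEF, flox/- MEF, -/- MEF or flox/- day 4 arrays, where 0 of the 35 were called. With a genotype term both calls were lost (limma, adjusted p = 0.182 for each), and with all 12 arrays in one fit that of Zfp961 was (0.206). Without the WT day 4 array 5 were called. The share of all genes called on leaving out an array is not given beside these counts. Zfp985 had the largest difference among genes not called, 1.19 ± 0.52 (limma, adjusted p = 0.241).

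Pluripotent cells against day 4 gave 7 of the 35 genes called (20%), all higher. Among all genes 7.3% were called, 686 higher and 770 lower. Zfp980 (log2 6.88 ± 0.20, limma, adjusted p = 0.000364) and Zfp640 (6.78 ± 0.27, 0.00101) were nearly as far apart as against MEF. Zfp979 (4.66 ± 0.97, limma, adjusted p = 0.0468) was called with day 4 values that spanned 3.67 to 7.40, and the call was lost without any 1 pluripotent array. Zfp991 (1.80 ± 0.18, limma, adjusted p = 0.00706) and Zfp961 (1.45 ± 0.17, 0.0111) were called too. With all 12 arrays in one fit 1 of the 7 calls held, that of Zfp640, and the adjusted p-values (limma) were 0.0502 for Zfp980, 0.15 for Zfp979, 0.19 for Zfp991 and 0.174 for Zfp961. Zfp945 and Zfp953 differed by less than 1 on the log2 scale and were lost without WT iPSC or flox/- iPSC, where 4 of the 35 were called. With a genotype term the calls of Zfp979, Zfp945 and Zfp953 were lost (limma, adjusted p = 0.0749, 0.0657 and 0.0814). The call of Zfp953 was also lost without the -/- ESC, flox/- day 4 or WT day 4 array.

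The 18 genes called higher in pluripotent cells were followed along each genotype's own course. These genes were chosen on the MEF and pluripotent arrays, so only the values after DOX add to what chose them. Their median log2 difference from the MEF array of the same genotype was 0.40 on the flox/- day 4 array, 2.38 on flox/- day 8 and 1.70 on flox/- iPSC. In WT cells it was 0.45 at day 4, -0.04 at day 8, 1.06 at day 11 and 1.86 in iPSC. On the flox/- day 8 array all 18 genes were past the midpoint between MEF and iPSC of their genotype, and on flox/- day 4 5 were. In WT cells 2 were past it at day 4, 1 at day 8 and 14 at day 11. These medians and counts were not computed over all genes called higher, so nothing particular to the 18 is read from them. The pluripotency marker mean was 11.56 on the flox/- day 8 array, against 11.43 to 11.54 on the pluripotent arrays. The WT day 8 array is from the earlier series and one of its labels gives day 4. Day, series and genotype cannot be told apart between the day 8 arrays.

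**Figure D4:**
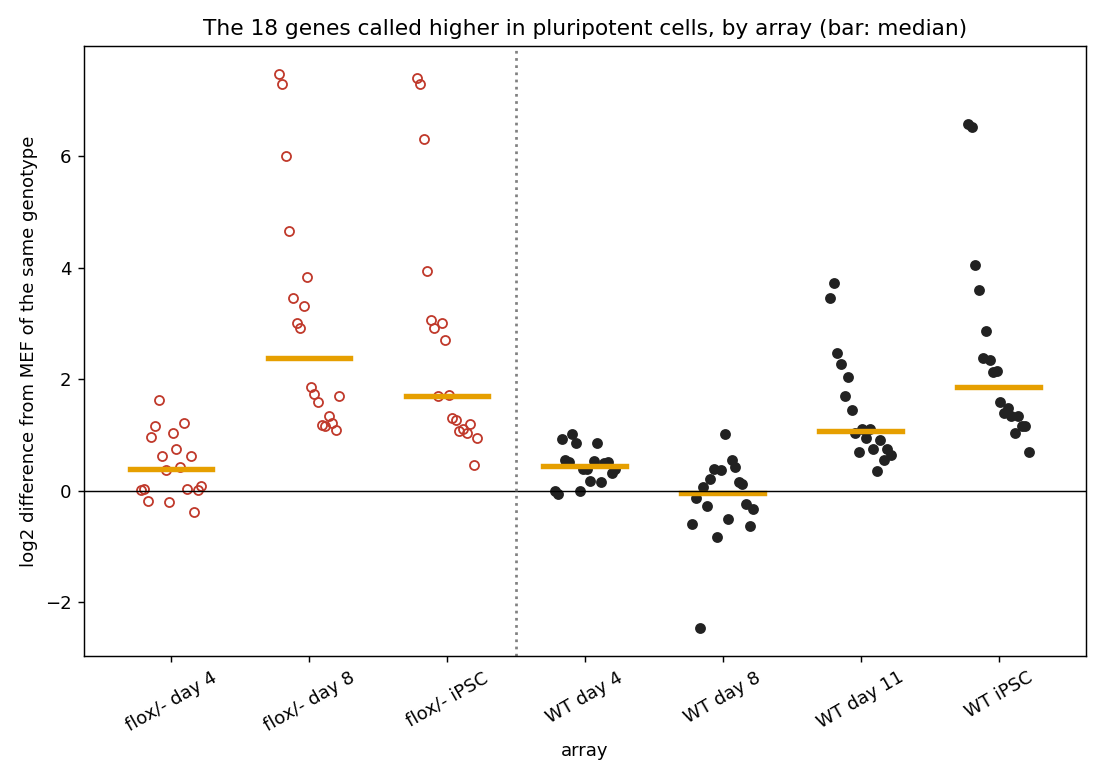
Log2 difference of each of the 18 genes called higher in pluripotent cells (points) from the MEF array of the same genotype, by array; flox/- arrays are left of the dotted line (open red circles) and WT arrays right of it (filled black circles), and orange bars are medians. The medians are 0.40, 2.38 and 1.70 for flox/- day 4, day 8 and iPSC, and 0.45, -0.04, 1.06 and 1.86 for WT day 4, day 8, day 11 and iPSC.

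Single arrays of the same course have no replicate, so the following differences carry no test. From day 4 to day 8 in flox/- cells, 17 of the 35 genes were at least 2-fold higher and 0 lower, against 12.9% of all genes at least 2-fold apart. From day 4 to day 11 in WT cells, 7 genes were at least 2-fold higher and 0 lower, against 7.6% of all genes. These were Zfp640, Zfp980, Zfp991, Zfp982, Zfp979, Zfp975 and Zfp961. The flox/- day 8 array against the WT day 11 array, which differ in both day and genotype, had 7 genes at least 2-fold higher and 0 lower. Among all genes 9.63% were at least 2-fold apart in either direction. Zfp980 differed most between that pair of arrays, by 3.70 on the log2 scale.

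Genotype was compared within stages. Between flox/- and WT cells over the 4 stages they share, 0 of the 35 genes and 0% of all genes were called by limma. An unadjusted p under 0.05 was found for 1 of the 35 (2.86%) and for 1256 of all genes (6.3%). The largest differences were 2.05 ± 1.47 for Zfp640, 1.91 ± 1.60 for Zfp980 and 1.20 ± 0.74 for Zfp951 (limma, adjusted p = 0.777, 0.796 and 0.765). These genes were far apart in the day 8 pair, where the WT array is from the earlier series. Zfp951 read 8.76 in flox/- and 4.95 in WT cells at day 8, against 4.72 in flox/- and 4.97 in WT cells at day 4. Between -/- and WT cells without DOX, 0 of the 35 genes and 0% of all genes were called by limma. Here 6 of the 35 (17.1%) and 1382 of all genes (6.93%) had an unadjusted p under 0.05. The largest differences were -1.37 ± 0.75 for Zfp979, -0.76 ± 0.55 for Zfp985 and -0.72 ± 0.19 for Zfp946 (limma, adjusted p = 0.735, 0.785 and 0.689).

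Whether the rise into pluripotency differed between mutated (flox/- or -/-) and WT cells was fitted as an interaction over the 7 arrays without DOX. WT MEF is 1 array there, so the fit holds no spread among WT MEF and only effect sizes are given. No gene was called, of the 35 or of all genes. Zfp979 had the largest interaction of the 35 genes, 2.39 on the log2 scale, followed by Zfp974 (0.97) and Zfp991 (0.90). Zfp979 was low in MEF of both mutated genotypes, at 3.86 in flox/- and 3.63 in -/- cells, against 6.48 in WT cells. It was low in flox/- cells at day 4 as well, at 3.67 against 7.40 in WT cells. In pluripotent cells it was at 9.87 to 10.53 in every genotype. The WT day 8 array, from the earlier series and with labels of both 4 and 8 days, read 4.01. The macrophage marker mean also differed between the MEF arrays, with 9.49 in flox/-, 7.26 in -/- and 10.33 in WT cells, and at day 4 it was 6.71 in flox/- and 9.04 in WT cells. Its part in the Zfp979 values was not tested.

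Between single MEF arrays, 1 of the 35 genes was at least 2-fold apart in flox/- against WT, which was Zfp979, against 2.82% of all genes. In -/- against WT MEF, 3 were lower (Zfp985, Zfp979 and Zfp974), against 4.86% of all genes. In flox/- against WT cells at day 4, Zfp931 and Zfp979 were lower, against 8.6% of all genes. In flox/- against WT iPSC 1 gene (Zfp985) was lower, by 1.08 on the log2 scale, against 3.44% of all genes. In -/- against WT ESC 1 gene (Zfp958) was higher, by 1.33, against 6.71% of all genes.

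Genes of the silencing machinery were set beside the 35 genes. Of 21 measured genes of a list of 24 KRAB silencing partners, 16 passed the test as higher and 2 as lower when pluripotent cells were set against MEF, with a median log2 difference of 1.10, against 20.6% and 20.9% of all genes. Trim28, the co-repressor that KRAB domains bind, averaged 11.96 ± 0.20 on the pluripotent arrays (SD, n = 4) and 10.60 ± 0.09 on the MEF arrays (SD, n = 3), a fold of 2.58 (limma, adjusted p = 0.000192). Setdb1, which places the repressive histone mark, differed 2.33-fold (limma, adjusted p = 0.000125). The largest differences in the list were those of Dnmt3l, which stimulates the de novo DNA methyltransferases (16.8-fold), Hells, a chromatin remodeller (7.34-fold), Uhrf1, which maintains DNA methylation (4.69-fold), and Suv39h2, a histone methyltransferase (4.36-fold). Their adjusted p-values were 0.00874, 4.62e-05, 0.000212 and 7.58e-05 (limma). The genes called lower were Pphln1 (log2 -0.45), a subunit of the HUSH complex, and Ehmt2 (log2 -0.38), a histone methyltransferase. Against MEF, 1 of the 21 was called after DOX (4.76%, against 8.4% of all genes), Suv39h2 (2.99-fold, limma, adjusted p = 0.0466).

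A list of 22 KRAB zinc finger genes with published roles had 20 measured genes, of which 8 passed as higher in pluripotent cells and 6 as lower, with a median log2 difference of 0.32, against 20.6% and 20.9% of all genes. Zfp459 had the largest difference, 4.97 ± 0.08 (31.4-fold, limma, adjusted p = 4.97e-07). Zfp57, which protects imprinted methylation, was 4.39-fold higher, and Zfp568, a repressor of a placental Igf2 transcript, 3.16-fold higher (limma, adjusted p = 0.00014 and 5.74e-05). Zfp354c was 2.37-fold lower (limma, adjusted p = 0.0117). Of 10 markers of 2-cell-like cells, 5 had a probe set of their own and 0 were called by limma in pluripotent cells against MEF, 2 of them with an unadjusted p under 0.05. Of all genes, 41.5% were called and 48.4% had an unadjusted p under 0.05. The MEF means of these markers, 4.03 to 4.59, were below the lower quartile of the arrays, 4.68.

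The shared probe sets, which cannot be given to one gene, were described without a test. Of 29, 24 had all pluripotent arrays above all MEF arrays and 3 had all of them below, against 21.8% and 18.9% of the 35512 probe sets. A pair of the 29 held the same values, to 2 decimals, on every array, which leaves 28 distinct ones. Their log2 differences lay between -1.27 and 6.66, with a median of 1.37.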

How the data were processed

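RNA of 12 mouse samples was profiled on Affymetrix arrays. It was extracted with TRIzol and labelled by oligo(dT)-primed amplification, per the labels' protocols. The deposited log2 values, 3.11 to 13.99 for 35512 probe sets, were made by the authors, and how they were summarised and normalized is not given in the sources used here. Array medians differed by 0.122, over a limit of 0.1, so the values were quantile normalized, and 0 columns were left out. Of the probe sets, 21789 carry 1 symbol, 1621 several, and 12102 are not listed in the annotation. Only the first kind was tested, as 19938 genes, each by its probe set with the highest mean. No dim genes were removed, so all 35 were tested. Array correlations lay between 0.895 and 0.991, so no array was a copy of another. The number of arrays limits the precision.

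Fits used limma 3.58.1 in R 4.3.3 (lmFit, eBayes) on log2 values, with Benjamini-Hochberg adjustment over all genes and calls at an adjusted p under 0.05. The procedure was checked on simulated data. States were compared as group means. The flox/- and WT cells were compared with stage as a block, and -/- and WT cells with stage and genotype as terms. Promoter windows came from RefSeq (GRCm38.p6), and their identity was computed with Biopython 1.88. Tables were handled with pandas 2.3.3 and figures drawn with matplotlib 3.10.9. The genes and lists were chosen with earlier results of these data known. Genes named in the text were the 14 called with the largest positive and up to 10 with the largest negative differences between pluripotent cells and MEF. In each other comparison they were the 5 largest called in each direction, or the 3 largest differences where fewer than 3 were called. Genes at the ends of the mean signal or of a cluster, and genes with an outlying array, were named as well. The alternatives were the deposited values, a filter on dim genes, other probe set rules, an intensity trend, leaving out arrays, all 12 arrays in one fit and a genotype term. Signals under the lower quartile set to it were added after seeing the data.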

Additional observations from a re-analysis of the deposited data

Results flagged for a closer look

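In 6 of 70 groups of 4 or 5 arrays (35 genes, DOX-treated and pluripotent states), 1 array lay far from the rest by Dixon's ratio, the gap to the nearest other array over the whole range of the group. Chance alone gives about 1 in 20 groups. No explanation was tested for any of them.

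Among the DOX-treated arrays, Zfp951 read 8.76 on flox/- day 8 against 4.72 to 5.28 on the others (ratio 0.861), and Zfp945 read 8.63 on flox/- day 8 against at most 7.83 (ratio 0.714). Zfp950 was lowest on flox/- day 4, at 4.13 against 4.60 to 4.73 (ratio 0.787), all below the array median. Among the pluripotent arrays, Zfp942 read 9.52 in WT iPSC against 8.87 to 8.94 (ratio 0.903), and Zfp948 read 9.92 in WT iPSC against 9.44 to 9.49 (ratio 0.895). Zfp983 was lowest in WT ESC, an array of the earlier series, at 5.46 against 6.31 to 6.45 (ratio 0.860).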

How the results depend on the processing

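The number of genes called between pluripotent cells and MEF, and the 0 called between genotypes, stayed within 1.5 times their values in every alternative run. Of the alternative fits of single genes called between pluripotent cells and MEF, 304 kept the call and 16 lost it, in Zfp942, Zfp944, Zfp951, Zfp958 and Zfp971. No difference turned its direction. For DOX-treated cells against MEF the count of 1 became 2 with the deposited values, 3 with the filter on dim genes, 4 without the arrays of the earlier series, 5 with all 12 arrays in one fit and 0 with a genotype term. It was 0 to 4 on leaving out 1 array. For DOX-treated against pluripotent cells it was 0 to 5 on leaving out 1 array. For day 4 against MEF the count of 2 became 1 with an intensity trend and robust prior, 1 with all 12 arrays and 0 with a genotype term, and it was 0 to 5 on leaving out 1 array. For pluripotent cells against day 4 the count of 7 became 1 with all 12 arrays, and it was 4 to 7 on leaving out 1 array. Why these counts moved was not tested. The share of all genes called in each alternative is not given, so nothing particular to the 35 is read from the moves. Alternatives for the single-array counts were chosen after seeing the data: the 1 gene apart between flox/- and WT iPSC became 0 with other probe set rules, and the 1 between -/- and WT ESC became 2 with the deposited values. The genotype interaction could not be fitted without the WT MEF array. The filter on dim genes kept 31 of the 35 genes. The labels give no replicate numbers, so no fit had a replicate block. The flox/- and WT arrays were matched by stage, and without that stage term 0 of the 35 and 1 of all genes were called.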
